A study of Mus musculus with 15 samples.

Results

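Pomc cells of the pituitary gland were examined through 6 genes, namely Pomc, Tbx19, Neurod1, Pax7, Pcsk2 and Pcsk1. Whether each of these genes is confined to Pomc cells within the gland was not tested. Nor was it tested whether each marker named below, such as Drd2, is confined to its cell type. The genes were chosen by symbol among the 55523 rows of the gene count table of whole pituitary glands, and each of the 6 symbols was held by 1 row. The mice carried a genome-edited deletion of an intronic enhancer (PE, for pituitary enhancer) that drives Nr5a1, a nuclear receptor gene that gonadotropes depend on. PE+/- mice had lost the enhancer on a single chromosome and served as the controls, and PE-/- mice had lost it on both, so that every group carried the deletion and no unedited mice were compared here. The 15 libraries came from PE+/- males (n = 4), PE-/- males (n = 4), PE+/- females (n = 4) and PE-/- females (n = 3), and strain background and age of the mice used for these libraries are not given in the sources used here. Whether a library held the gland of 1 mouse or of several is not stated, so that the p-values measure the spread between these libraries.

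Library totals ran from 12982794 to 30238443 estimated counts. Nr5a1 itself had a mean of 50.2 CPM (deposited counts brought to one library size by TMM scaling) in PE+/- males, against 0.347 CPM in PE-/- males, and 38.7 and 0.723 CPM in the corresponding females. Of 7 markers of the posterior lobe, the neural part of the gland, Oxt had counts in 4 male libraries only (PE+/- replicates 2 and 4 and PE-/- replicates 3 and 4), in which none of the 7 was at 0 and their summed level was 42.6 to 100.2 CPM. In the other 11 libraries 3 to 6 of the 7 were at 0, Oxt among them, and the sum was 1.31 to 19.2 CPM. The library labelled PE-/- male replicate 1 stood apart in Pomc, so results on Pomc are given with and without it.

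Pomc encodes pro-opiomelanocortin, the precursor that is cut into the hormones of 2 cell types. Corticotropes of the anterior lobe use the convertase encoded by Pcsk1 to release ACTH, and melanotropes of the intermediate lobe also use that encoded by Pcsk2, which cuts ACTH further into α-MSH. The T-box factor Tbx19 (Tpit) drives Pomc in both cell types, the basic helix-loop-helix factor Neurod1 acts on the Pomc promoter in corticotropes through an E-box, and the paired-box factor Pax7 selects the melanotrope fate.

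The promoters of 3 of the genes are shown because Pomc is the gene that the others control or process, Neurod1 is the gene that differed between the female groups, and Pcsk1 is the gene with the smallest unadjusted p in males. Each runs from 250 bases before to 50 bases after the RefSeq start site (GRCm38.p6), 5′ to 3′ on the gene's own strand. Capitals mark matches, on either strand, to CANNTG (an E-box), CAGATG (a form of CANNTG, overlapping it), TAATCC (the motif of Pitx factors), TGACGTCA (the cyclic AMP response element) or TATAAA. The windows are chr12:3954695-3954994 (plus strand) for Pomc, chr2:79456587-79456886 (minus strand) for Neurod1 and chr13:75089607-75089906 (plus strand) for Pcsk1.
Pomc: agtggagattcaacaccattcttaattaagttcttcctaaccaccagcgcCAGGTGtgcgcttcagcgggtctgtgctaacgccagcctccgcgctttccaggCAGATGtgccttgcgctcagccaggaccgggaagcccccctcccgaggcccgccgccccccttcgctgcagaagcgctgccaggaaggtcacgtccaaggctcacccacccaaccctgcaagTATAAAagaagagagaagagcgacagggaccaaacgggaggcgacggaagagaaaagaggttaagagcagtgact
Neurod1: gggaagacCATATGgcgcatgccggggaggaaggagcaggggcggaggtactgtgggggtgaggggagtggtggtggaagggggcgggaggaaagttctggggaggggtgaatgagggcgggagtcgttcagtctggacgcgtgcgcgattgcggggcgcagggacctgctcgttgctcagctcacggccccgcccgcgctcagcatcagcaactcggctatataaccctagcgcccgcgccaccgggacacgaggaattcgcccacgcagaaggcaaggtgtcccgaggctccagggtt
Pcsk1: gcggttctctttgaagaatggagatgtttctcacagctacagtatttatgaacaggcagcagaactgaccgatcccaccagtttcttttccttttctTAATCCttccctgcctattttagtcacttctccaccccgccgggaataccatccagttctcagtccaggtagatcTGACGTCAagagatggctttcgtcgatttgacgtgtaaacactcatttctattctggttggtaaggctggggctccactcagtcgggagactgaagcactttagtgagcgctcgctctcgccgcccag

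The Pomc window held CANNTG at 200 and at 147 bases before the start, the latter as CAGATG, and TATAAA at 25 bases before it. Pcsk1 held TAATCC at 153 bases and TGACGTCA at 78 bases before the start, and Neurod1 held CATATG, a form of CANNTG, at 242 bases before it. All 6 genes had a RefSeq promoter, and of the other 3 Tbx19 held CANNTG at 66 bases before the start and at position 8 after it, Pcsk2 held it at 135 bases before the start, and Pax7 held none of the motifs. Neither TCACACC, a T-box half-site, nor AAAGGTCA, the motif of the Nr4a receptors, was found in the 6 windows. The search took these exact letters and went no further than 250 bases before the start. Sites further upstream or with other letters were therefore not covered. Of 32544 mouse promoters of this length, 72.3% held CANNTG, 17.1% CAGATG, 13.6% TATAAA, 7.06% TAATCC, 3.95% TCACACC, 1.8% TGACGTCA and 1.52% AAAGGTCA, so that the E-box was found in most promoters.

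All 6 genes were well above the level of 12 counts taken as the floor (3 fragments at about 4 counts each), with a lowest value of 153 counts, for Pax7 in PE+/- male replicate 3. Per kilobase of annotated exon (GENCODE M21, mm10), Pomc had a median level of 31928 CPM over the 15 libraries (range 3520 to 87191) and lay above the other 5 genes in every library. Pcsk2 (median 46.4 CPM per kb, range 20.2 to 87.8), Pcsk1 (39.5, 19.4 to 70.5) and Tbx19 (24.2, 11.2 to 37.1) followed, with ranges that overlapped. Neurod1 (6.48, 4.19 to 15.8) and Pax7 (4.24, 1.40 to 9.69) were the lowest, and their ranges overlapped too. Between libraries, Pomc varied most, with a highest level 24.8 times the lowest, against 6.92 times for Pax7 and 3.32 to 4.34 times for the other 4.

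**Figure D1:**
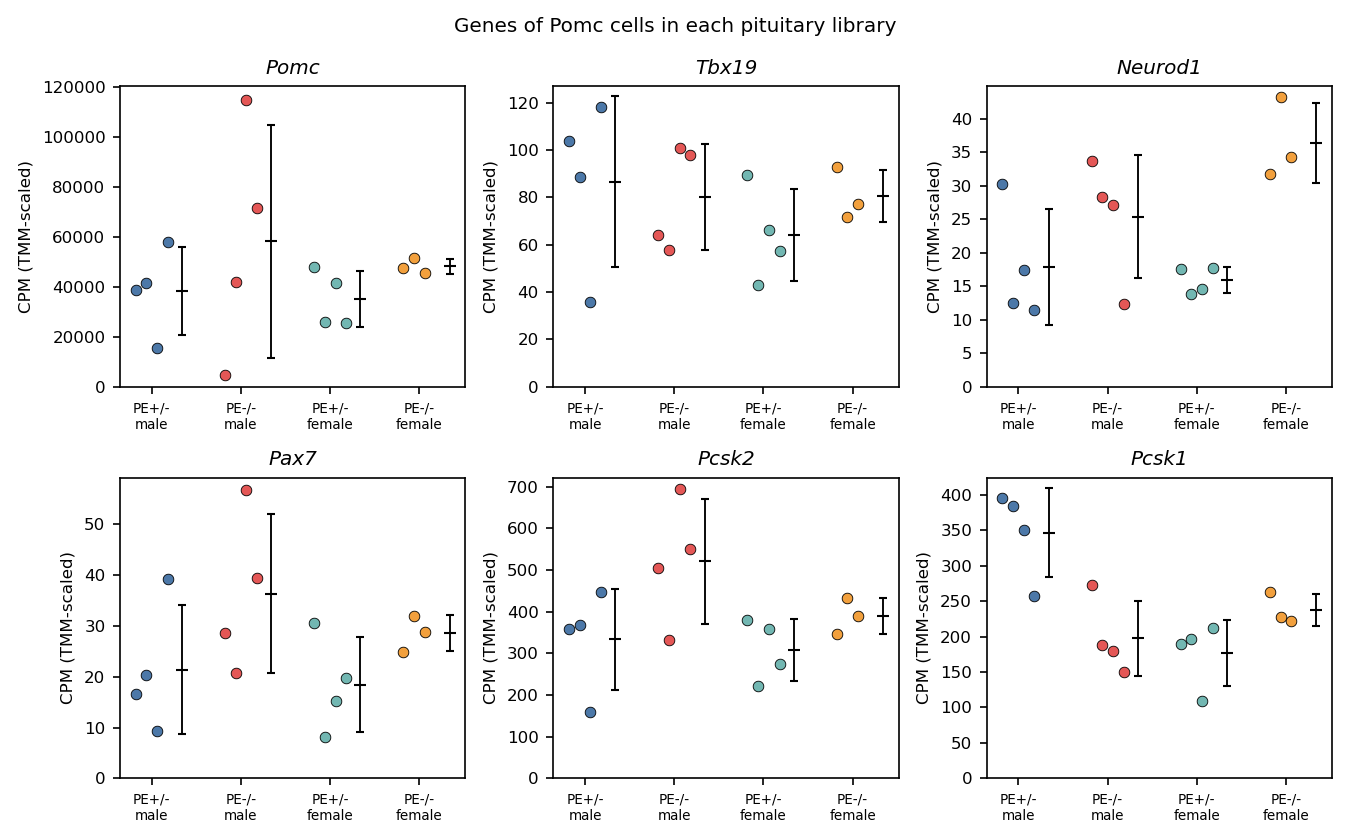
Level of each gene (CPM, linear axes that start at 0) in each of the 15 libraries, with points for libraries in the order of replicate 1 to 4 within a group and a bar for the mean ± SD. Pomc ranged from 4639 to 114917 CPM among PE-/- males, the 3 PE-/- female points of Neurod1 lay above all PE+/- females, and the PE+/- males were the highest group for Pcsk1.

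Pomc (MSTRG.5021, chromosome 12, 3954951 to 3960642, plus strand, mm10) did not pass the threshold of an edgeR adjusted p of 0.05 in any comparison. It had 38704, 41477, 15421 and 58039 CPM in PE+/- males, against 4639, 42081, 114917 and 71488 CPM in PE-/- males (replicates 1 to 4). The PE-/- males held both the lowest and the highest library of all 15, and the groups overlapped. The means were 38410.4 ± 17543 and 58281 ± 46626 CPM (SD, n = 4 each), with a log2 fold change of 0.60 (edgeR SE 0.78, adjusted p = 0.983). In bulk tissue fewer cells of a type and less RNA per cell cannot be told apart, for this and every other gene.

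PE-/- male replicate 1 had 91821 Pomc counts, 0.481% of the library, where the other 14 libraries had 1.46% to 11.8%. Its Tbx19 (64.3 CPM), Pax7 (28.6 CPM), Pcsk2 (505 CPM) and Oacyl (196 CPM) lay within the range of the others. The number of genes under 1/3 of the lowest other library was 18 in this library, against 14 to 43 in the rest. No further row of the count table carried the locus identifier of Pomc, and rows under other identifiers were not searched for its reads. Without PE-/- male replicate 1, the male difference in Pomc was 0.99 (edgeR SE 0.48, adjusted p = 0.890), and without PE-/- male replicate 3, the highest library, it was 0.033. Without the 4 libraries with Oxt counts, which left 2 against 2, it was -0.22 (edgeR SE 1.08, adjusted p = 0.994). The part of any of these libraries in the male values was not tested further.

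In females Pomc had 48056, 25885, 41367 and 25570 CPM in the PE+/- group and 47391, 51633 and 45728 CPM in the PE-/- group. The PE-/- libraries lay close together at the upper end of the PE+/- range, from which PE+/- female replicate 1 overlapped them. The means were 35220 ± 11296 (SD, n = 4) and 48250 ± 3045 CPM (n = 3), with a log2 fold change of 0.45 (edgeR SE 0.25, adjusted p = 0.455). Neither did the genotype difference differ between the sexes beyond its error (interaction -0.15, SE 0.93, edgeR adjusted p = 0.989, and -0.54 without PE-/- male replicate 1). Females against males gave -0.12 (edgeR SE 0.40, adjusted p = 0.943) in PE+/- and -0.27 (edgeR SE 0.82, adjusted p = 0.997) in PE-/- mice, or -0.66 in the latter without PE-/- male replicate 1.

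Tbx19 (MSTRG.1487, chromosome 1, 165137855 to 165160773, minus strand) had 104, 88.6, 35.6 and 118 CPM in PE+/- males, against 64.3, 57.7, 101 and 98.1 CPM in PE-/- males. It had 89.4, 43.1, 66.3 and 57.3 CPM in PE+/- females and 92.8, 71.8 and 77.1 CPM in PE-/- females. All 4 groups overlapped, and the lowest value of all, in PE+/- male replicate 3, was in the library with the lowest Pomc after PE-/- male replicate 1. The log2 fold change of PE-/- against PE+/- was -0.11 (edgeR SE 0.36, adjusted p = 0.988) in males and 0.32 (edgeR SE 0.25, adjusted p = 0.611) in females.

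Neurod1 (MSTRG.13654, chromosome 2, 79452521 to 79456751, minus strand) was the gene of the 6 that passed the threshold, higher in PE-/- than in PE+/- females. It had 17.6, 13.9, 14.6 and 17.7 CPM in PE+/- females and 31.8, 43.2 and 34.3 CPM in PE-/- females. The groups did not overlap, and the lowest PE-/- library was well above the highest PE+/- library. The means were 16.0 ± 2.0 (SD, n = 4) and 36.4 ± 6.0 CPM (n = 3), a rise of 2.27-fold (log2 fold change 1.19, SE 0.17, edgeR adjusted p = 0.0328). This was 1 of 6 genes called by edgeR, where 1.05% of the 18085 genes tested in females were called (0.348% called higher) and 16.1% had an unadjusted p under 0.05. DESeq2 called the same gene of the 6 (adjusted p = 8.95e-07), where it called 7.91% of all genes.

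The call of Neurod1 was near the threshold, and it was lost with library totals as the scaling (log2 fold change 1.20, edgeR adjusted p = 0.0519) and in a single fit on all 15 libraries (1.19, edgeR adjusted p = 0.0760). Leaving out each library in turn gave log2 fold changes of 1.04 to 1.28, and the gene was no longer past the threshold without PE+/- female replicate 2, 3 or 4 or PE-/- female replicate 1, 2 or 3 (edgeR adjusted p 0.0656 to 0.129). In males Neurod1 had 30.3, 12.6, 17.4 and 11.4 CPM in the PE+/- group and 33.8, 28.4, 27.2 and 12.3 CPM in the PE-/- group. These groups overlapped through PE+/- replicate 1, at the upper end, and PE-/- replicate 4, at the lower end. The log2 fold change in males was 0.50 (edgeR SE 0.39, adjusted p = 0.972), and it was not shown to differ from that in females (interaction 0.69, SE 0.47, edgeR adjusted p = 0.695).

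**Figure D2:**
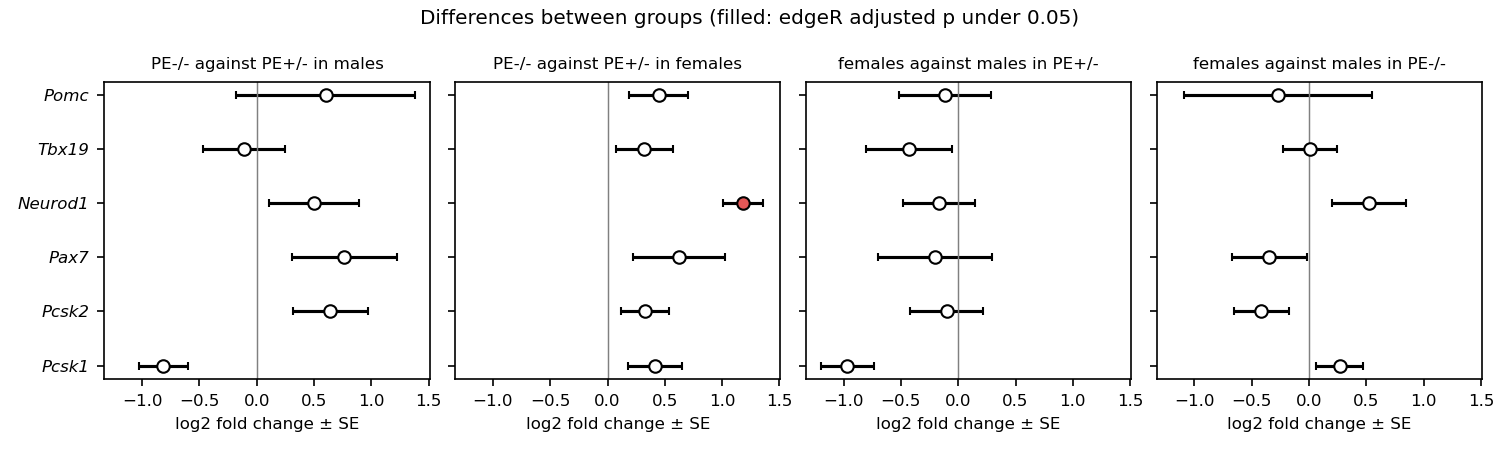
Log2 fold change ± SE (edgeR) of the 6 genes in the 2 comparisons of genotype and the 2 comparisons of sex, with a filled point for an adjusted p under 0.05. Neurod1 in females, at 1.19, is the filled point, and Pcsk1 lies at -0.81 in males, 0.42 in females and -0.97 between the sexes of PE+/- mice.

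Pax7 (MSTRG.17569, chromosome 4, 139737062 to 139833528, minus strand) had 16.7, 20.4, 9.32 and 39.1 CPM in PE+/- males, against 28.6, 20.7, 56.8 and 39.3 CPM in PE-/- males. The highest library of each group was one with Oxt counts (PE+/- replicate 4 and PE-/- replicate 3), and the groups overlapped. The log2 fold change was 0.76 (edgeR SE 0.46, adjusted p = 0.934), and 0.92 (edgeR SE 0.38, adjusted p = 0.969) in the 4 male libraries without Oxt counts. In females it had 30.6, 8.20, 15.3 and 19.8 CPM in the PE+/- group and 24.9, 31.9 and 28.9 CPM in the PE-/- group, a log2 fold change of 0.62 (edgeR SE 0.40, adjusted p = 0.515) between overlapping groups.

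Pcsk2 (MSTRG.14232, chromosome 2, 143546156 to 143816285, plus strand) had 359, 367, 160 and 446 CPM in PE+/- males, against 505, 331, 695 and 551 CPM in PE-/- males. As for Pax7, the highest library of each male group was PE+/- replicate 4 and PE-/- replicate 3, both with Oxt counts, and the groups overlapped. The log2 fold change was 0.64 (edgeR SE 0.33, adjusted p = 0.884), and 0.68 (edgeR SE 0.47, adjusted p = 0.988) in the 4 male libraries without Oxt counts. In females Pcsk2 had 381, 221, 359 and 274 CPM in the PE+/- group and 347, 433 and 388 CPM in the PE-/- group, a log2 fold change of 0.33 (edgeR SE 0.21, adjusted p = 0.519) between overlapping groups.

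Pcsk1 (MSTRG.6906, chromosome 13, 75089826 to 75134861, plus strand) had the smallest unadjusted p of the 6 genes in males and in the interaction, without passing the threshold there. It had 395, 384, 351 and 257 CPM in PE+/- males, against 273, 188, 179 and 150 CPM in PE-/- males. The lowest PE+/- library overlapped the highest PE-/- library, and the other 6 were separate. The means were 347 ± 62.8 and 197 ± 52.7 CPM (SD, n = 4 each), which gave a log2 fold change of -0.81 (edgeR SE 0.21, unadjusted p = 0.00446, adjusted p = 0.394, and 0.0572 by DESeq2). In females Pcsk1 had 189, 197, 109 and 213 CPM in the PE+/- group and 263, 228 and 221 CPM in the PE-/- group, which did not overlap. The female difference was in the other direction (log2 fold change 0.42, SE 0.23, edgeR adjusted p = 0.445). The difference between the sexes in this change was 1.24 on the log2 scale (SE 0.33, unadjusted p = 0.00225, edgeR adjusted p = 0.18). DESeq2 put it past the threshold (1.23, adjusted p = 0.0293).

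Among PE+/- mice, Pcsk1 was lower in every female than in every male library (log2 fold change -0.97, SE 0.23, edgeR adjusted p = 0.126). DESeq2 (adjusted p = 0.00826) and a single edgeR fit on all 15 libraries (adjusted p = 0.0421) put this difference past the threshold. Among PE-/- mice the sexes overlapped (0.27, SE 0.21, edgeR adjusted p = 0.997). The order of the group means was therefore PE+/- males (347 CPM), PE-/- females (237 ± 22.5 CPM, n = 3), PE-/- males (197 CPM) and PE+/- females (177 ± 46.4 CPM, n = 4), and each group overlapped its neighbour in this order.

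Over the 6 genes, edgeR called 0 in males, where it called 0.132% of 17392 genes tested, and the groups of all 6 overlapped, against 4.56% of all genes with groups that did not. Pcsk1 was the gene of the 6 at an unadjusted p under 0.05 there (6.14% of all genes), and DESeq2 called 0 (1.18% of all genes). In females 2 of 6 (Neurod1 and Pcsk1) had groups that did not overlap, both higher in PE-/- mice, where 18.6% of all genes did not overlap and 9.64% did not and were higher, and all 6 log2 fold changes were above 0, with a median of 0.43 against 0.0017 over all genes tested. EdgeR called 0 of 6 between the sexes of PE+/- mice (0.67% of all genes called) and of PE-/- mice (0.0494%), and 0 of 6 for the interaction (0.161%). At an unadjusted p under 0.05 these counts were 1, 0 and 1, each time Pcsk1, where 13.5%, 3.37% and 10.1% of all genes were under it. DESeq2 called the same 1, 0 and 1, where it called 5.26%, 0.225% and 2.03% of all genes. Groups that did not overlap were found for 1 of 6 genes (Pcsk1) between the sexes of PE+/- mice, where 9.75% of all genes had them (4.43% lower in females), and for 0 of 6 between those of PE-/- mice (5.24%).

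Ratios of the counts of 2 genes within a library do not depend on how libraries are scaled. The ratio of Pcsk2 to Pcsk1, the convertase that is added in melanotropes to the one that both cell types use, was 0.909, 0.957, 0.457 and 1.74 in PE+/- males, against 1.85, 1.75, 3.88 and 3.68 in PE-/- males. The highest PE+/- and the lowest PE-/- library were almost level, and the groups did not overlap. The mean log2 ratio was -0.13 ± 0.79 and 1.38 ± 0.62 (SD, n = 4 each), a 2.86-fold difference with an exact permutation p of 0.0286, the smallest that 4 against 4 allows, and an adjusted p of 0.229 over 16 such tests. The 2 PE-/- libraries with Oxt counts had the 2 highest ratios of their group, and so had the PE+/- libraries with Oxt counts.

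The ratio of Pax7 to Tbx19 was 0.160, 0.230, 0.262 and 0.331 in PE+/- males, against 0.445, 0.360, 0.562 and 0.401 in PE-/- males. Again no PE+/- library reached a PE-/- library, and the difference was 1.83-fold (exact permutation p = 0.0286, adjusted p = 0.229). In females the groups overlapped for both ratios (Pcsk2 to Pcsk1 0.931-fold, exact permutation p = 0.8, and Pax7 to Tbx19 1.32-fold, exact permutation p = 0.229, where 4 against 3 allows no p under 0.0571). The ratio of Pomc to Tbx19 was 372 to 490 in PE+/- males and 728 to 1137 in PE-/- males except PE-/- male replicate 1, in which it was 72.1. That of Pomc to Pax7 was 1483 to 2319 and 1817 to 2029 in the same libraries and 162 in PE-/- male replicate 1. No ratio of Pomc passed an exact permutation p of 0.05 in any comparison of groups. The comparisons with the 3 PE-/- females could not pass, since 4 against 3 allows no p under 0.0571. Without PE-/- male replicate 1 the log2 difference in males was 0.95 for Pomc to Tbx19 and 0.083 for Pomc to Pax7. That leaves 4 against 3 as well, which cannot pass either.

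**Figure D3:**
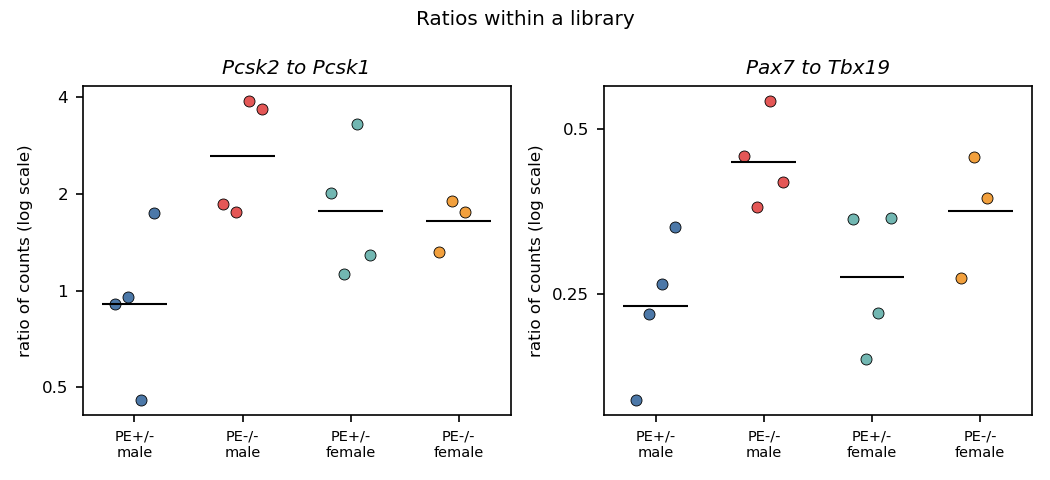
Ratio of counts of Pcsk2 to Pcsk1 and of Pax7 to Tbx19 within each library (log2 axis), by group, with a line at the geometric mean. The 4 PE-/- male points lie above the 4 PE+/- male points in both panels (2.86-fold and 1.83-fold), while the female groups overlap.

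Pomc was then related to melanotrope genes across the 15 libraries, on log2 CPM with a prior count of 2. The rank of Pomc followed that of the melanotrope genes Pax7 (Spearman rho 0.83, permutation p = 0.00028, adjusted p = 0.00112), Pcsk2 (rho 0.64, permutation p = 0.0125, adjusted p = 0.0215) and Oacyl (rho 0.71, permutation p = 0.00418, adjusted p = 0.0104), the last an acyltransferase gene of melanotropes. Pearson correlations were lower and did not pass the threshold, with r of 0.47 for Pax7 (permutation p = 0.0792, adjusted p = 0.136), 0.40 for Pcsk2 (permutation p = 0.141, adjusted p = 0.211) and 0.48 for Oacyl (permutation p = 0.0794, adjusted p = 0.136). Of the 12 relations tested, 8 passed an adjusted p of 0.05 by rank and 2 by Pearson's r.

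The gap between the 2 measures was tied to PE-/- male replicate 1. Without it, over 14 libraries, r was 0.98 for Pcsk2, 0.96 for Oacyl and 0.90 for Pax7. The rank correlation (rho) was then 0.90, 0.88 and 0.96 for these 3 genes. That library was left out because its Pomc was seen to be low, so these values describe the other 14 and are given without a test. Without the 2 libraries farthest from the median of Pomc (PE-/- male replicates 1 and 3) r was 0.98, 0.94 and 0.86 for the same genes.

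Within the sexes the values differed with that library. In the 7 females, none of which had Oxt counts, r was 0.93 for Pcsk2, 0.85 for Oacyl and 0.77 for Pax7. In the 8 males it was 0.37, 0.46 and 0.48, and in 7 males without PE-/- male replicate 1 it was 0.99, 0.99 and 0.97. After the group means were subtracted, r was 0.48, 0.59 and 0.52 over 15 libraries and 0.97, 0.95 and 0.85 over 14. In the 11 libraries without Oxt counts, which keep PE-/- male replicate 1, r was 0.057, 0.18 and 0.17. The libraries share their total, to which Pomc alone gave up to 11.8%.

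Of the other markers, the dopamine receptor gene Drd2, through which melanotropes are held in check, had rho of 0.84 with Pomc (permutation p = 0.00021, adjusted p = 0.00112) and r of 0.54 (permutation p = 0.0401, adjusted p = 0.117). Esm1 had rho of 0.61 (adjusted p = 0.0254) and r of 0.53 (adjusted p = 0.117), and Megf11 rho of 0.51 (adjusted p = 0.0724) and r of 0.37 (adjusted p = 0.236), by permutation. Rbfox3, at 0.671 to 3.55 CPM the lowest of the list, had r of -0.0029 and rho of 0.30 (permutation adjusted p = 0.992 and 0.296). Tbx19 had r of 0.59 and rho of 0.71 with Pomc (permutation adjusted p = 0.0859 and 0.0104), and r of 0.81 over 14 libraries. Pcsk1 (r -0.34, rho -0.42, permutation adjusted p = 0.264 and 0.142) and Neurod1 (r -0.13, rho -0.11, permutation adjusted p = 0.740 and 0.706) did not pass the threshold with Pomc. Whether these correlations differ from those of the melanotrope genes was not tested.

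The melanotrope genes also followed each other where Pomc did not enter. Pax7 and Pcsk2 had r of 0.90 (permutation p = 1e-05, adjusted p = 0.00012) and rho of 0.88 (adjusted p = 0.0006) over 15 libraries. Without the 2 libraries farthest from the median of Pax7 (PE+/- female replicate 2 and PE+/- male replicate 3) r was 0.83. Pax7 and Tbx19 had r of 0.77 (permutation p = 0.00085, adjusted p = 0.0051) and rho of 0.64 (adjusted p = 0.0215), and r of 0.48 without the same 2 libraries, on which much of this relation rests. Their r was 0.84 over 15 libraries after group means were subtracted, and 0.68 to 0.86 when each library was left out in turn.

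**Figure D4:**
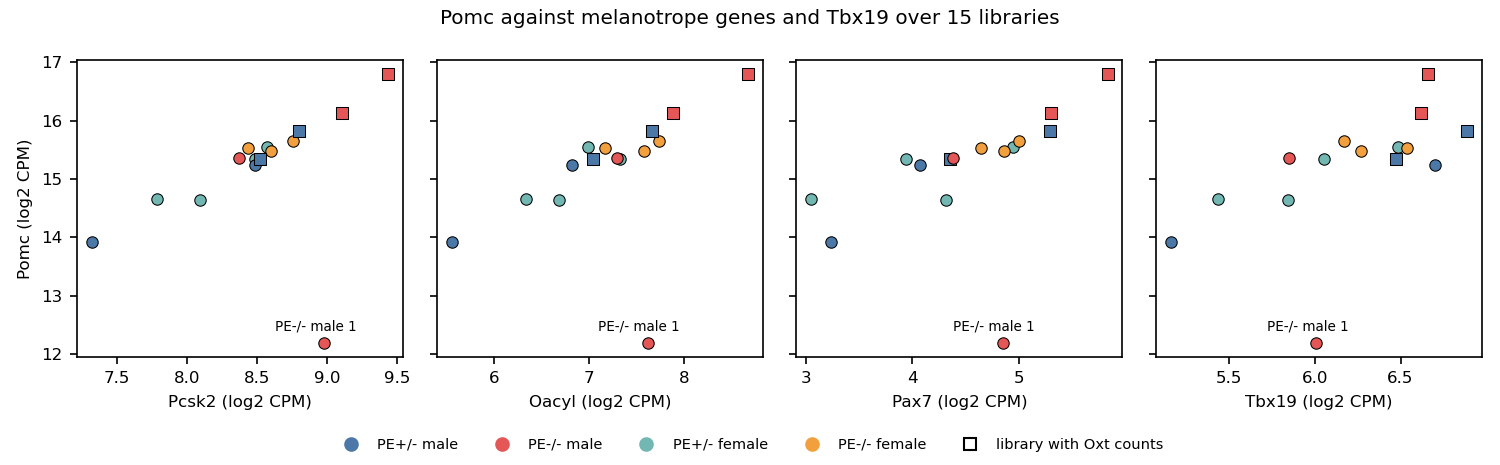
Pomc against Pcsk2, Oacyl, Pax7 and Tbx19 (log2 CPM on both axes) in the 15 libraries, coloured by group, with squares for the 4 libraries with Oxt counts. All 15 libraries give r of 0.40, 0.48, 0.47 and 0.59. PE-/- male replicate 1 lies far below the other points in each panel, and the other 14 give r of 0.98, 0.96, 0.90 and 0.81.

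Over 11887 genes with a mean of at least 100 counts, the 10 genes most like Pomc, by r after subtraction of group means over 15 libraries, were Mrpl16, Rcl1, Ncaph2, Dpy30, Psmd12, Farsa, Uqcrq, Med27, Ndufa12 and Ahcyl1 (r 0.875 to 0.926). Without PE-/- male replicate 1 the same 10 had r of 0.230 (Ndufa12) to 0.762 (Dpy30), all lower than with it. Over the other 14 libraries Pcsk2 was the gene most like Pomc (r 0.974), followed by Krt7, Oacyl (0.946), Slitrk6, Klhl18, Fibin, Tbx19 (0.912, rank 7), Cdh13, Anxa3 and Ablim1. This ranking was added after the values were seen, and over all 15 libraries Pcsk2 was at rank 784, Oacyl at 390 and Tbx19 at 339. Pax7 was at rank 26 of the 11887 without that library and at 605 with it, and Crhr1, the corticotropin-releasing hormone receptor of corticotropes, at rank 6150 and 5210.

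The 10 genes most like Pax7 were Six3os1, Gulo, Jam2, Nfib, Krt7, Ildr2, Trim41, Gm5454, Ppargc1a and Cybrd1 (r 0.880 to 0.927). They had r of 0.883 to 0.937 without PE-/- male replicate 1. Without that library Cit (r 0.918, rank 5) was among the first 10 in place of Ppargc1a, and Cybrd1 was at rank 1. Over all 15 libraries Pcsk2 stood at rank 15 (r 0.869), Oacyl at rank 22 and Tbx19 at rank 24, while Pcsk1 (rank 9321) and Neurod1 (rank 8355) were in the lower part of the order.

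The genes around Pomc were read from lists, beside shares over all genes of 6.14% in males and 16.1% in females at an unadjusted p under 0.05, and of 1.18% and 7.91% by DESeq2. Of 7 melanotrope genes (Pax7, Pcsk2, Oacyl, Esm1, Megf11, Rbfox3 and Drd2), edgeR and DESeq2 called 0 between the genotypes in males and 0 in females, where an unadjusted p under 0.05 was found for 0 and 1 (Oacyl). All 7 had a log2 fold change above 0 in both sexes, with a median of 0.65 in males and 0.33 in females, beside 0.0027 and 0.0017 over all genes tested. Of 5 corticotrope genes (Pomc, Tbx19, Crhr1, Avpr1b and Neurod1), 4 lay above 0 in males (median 0.34, 0 called by edgeR, 0 at an unadjusted p under 0.05 and 0 by DESeq2). All 5 did in females (median 0.45), where Neurod1 was the gene called by both tools. Oacyl had 113, 132, 46.9 and 202 CPM in PE+/- males, against 196, 157, 408 and 237 CPM in PE-/- males. As for Pax7 and Pcsk2, the highest library of each group was one with Oxt counts. Its log2 fold change was 1.01 (edgeR SE 0.45, adjusted p = 0.815) in males and 0.63 (edgeR SE 0.26, adjusted p = 0.288) in females.

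Pitx1, a homeodomain factor that acts on Pomc with Tbx19, had a log2 fold change of -0.22 (edgeR SE 0.39, adjusted p = 0.988) in males and 0.26 (edgeR SE 0.35, adjusted p = 0.798) in females.

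Of 7 genes of receptors and feedback (Crhr1, Avpr1b, Nr3c1, Nr3c2, Sstr2, Sstr5 and Drd2), edgeR called 0 in either sex, with 0 at an unadjusted p under 0.05 in males and 3 in females (6.14% and 16.1% of all genes), and DESeq2 called 0 and 3 (1.18% and 7.91%). In females all 7 lay above 0 with a median of 0.70, and in males all 7 did with a median of 0.13. Crhr1 had 6.17 to 18.7 CPM in PE+/- females and 13.1 to 27.2 CPM in PE-/- females (log2 fold change 0.60, SE 0.39, edgeR adjusted p = 0.519), and 0.30 (edgeR SE 0.38, adjusted p = 0.983) was its change in males. Avpr1b, the vasopressin receptor of corticotropes, had 0.11 (edgeR SE 0.35, adjusted p = 0.925) in females and 0.34 (edgeR SE 0.24, adjusted p = 0.970) in males.

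Nr3c1, the glucocorticoid receptor that represses Pomc, had 97.0, 124, 72.03 and 86.2 CPM in PE+/- females and 149, 191 and 180 CPM in PE-/- females. The groups did not overlap, where 18.6% of all genes in females did not, and the log2 fold change was 0.86 (edgeR SE 0.21, adjusted p = 0.0999). DESeq2 put it past the threshold (0.86, adjusted p = 0.00839). In males it was 0.13 (edgeR SE 0.20, adjusted p = 0.986), between overlapping groups.

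Of 8 genes that glucocorticoids induce (Fkbp5, Tsc22d3, Per1, Sgk1, Dusp1, Zbtb16, Nfkbia and Cebpd), edgeR called 0 in males (2 at an unadjusted p under 0.05, beside 6.14% of all genes, and 0 by DESeq2, beside 1.18%) and 0 in females (4, beside 16.1%, and 2, beside 7.91%). They lay above 0 in 7 of 8 in females (median 0.63) and in 3 of 8 in males (median -0.18), and between the sexes of PE+/- mice 7 of 8 lay below 0 (median -0.72, with 0 called by edgeR, 4 at an unadjusted p under 0.05, beside 13.5% of all genes, and 2 by DESeq2, beside 5.26%). For the interaction their median was 0.96, with 0 called by edgeR, 3 at an unadjusted p under 0.05 (10.1% of all genes) and 2 by DESeq2 (2.03%).

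Of 9 genes of prohormone processing (Pcsk1, Pcsk2, Cpe, Pam, Scg5, Pcsk1n, Furin, Ctsl and Cpd), edgeR called 0 in males (1 at an unadjusted p under 0.05, beside 6.14% of all genes, and 0 by DESeq2) and 0 in females (2, beside 16.1%, and 1 by DESeq2, beside 7.91%), with medians of -0.091 and 0.42. Cpe, the carboxypeptidase that trims the cut peptides, had -0.29 (edgeR SE 0.64, adjusted p = 0.988) in males, where PE+/- male replicate 1 had 1544 CPM and the other 7 had 154 to 555 CPM. It had 0.89 (edgeR SE 0.34, adjusted p = 0.259) in females. Scg5, the chaperone of the Pcsk2 protein, had 0.089 (edgeR SE 0.12, adjusted p = 0.983) in males and -0.18 (edgeR SE 0.14, adjusted p = 0.604) in females, in which Pcsk2 and Scg5 lay on opposite sides of 0.

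Markers of other cell types were read in the same comparisons. In both sexes edgeR called Lhb, Gnrhr and Nr5a1, 3 of 5 gonadotrope markers, as lower in PE-/- mice. It called 0.132% of all genes in males and 1.05% in females. All 5 markers lay below 0 in both sexes. Fshb had -5.22 (edgeR adjusted p = 0.0506) in males and -3.34 (edgeR adjusted p = 0.125) in females. Cga had -0.70 (edgeR adjusted p = 0.970) and -0.37 (edgeR adjusted p = 0.701). In each sex 4 of the 5 had an unadjusted p under 0.05, and DESeq2 called 4. In females Prl, the hormone of lactotropes, fell from 30096 to 5079 CPM (a log2 difference of -2.58 by edgeR, adjusted p = 0.00698). The summed posterior lobe markers in females were 5.70 to 19.2 CPM in PE+/- and 1.31 to 4.61 CPM in PE-/- libraries, with 3 of the 7 markers at 0 in all libraries of each group. Most of the PE+/- sum (mean 11.8 CPM) was Col25a1, with means of 10.5 CPM in PE+/- and 1.27 CPM in PE-/- females. Gfap had means of 1.21 and 1.14 CPM, and Rax 0.052 and 0.12 CPM, in the same groups. The 4 markers of stem or folliculostellate cells lay above 0 in females (median 0.72, 0 called by edgeR). Of them, 2 had an unadjusted p under 0.05, beside 16.1% of all genes, and 2 were called by DESeq2, beside 7.91%. In males Gh, the hormone of somatotropes, had 134029 to 186695 CPM in PE+/- and 65559 to 129429 CPM in PE-/- libraries. These did not overlap (log2 fold change -0.61, SE 0.24, edgeR unadjusted p = 0.032, adjusted p = 0.727), where 4.56% of all genes in males did not. The male medians were -0.33 for 2 somatotrope, -0.33 for 2 thyrotrope, -0.37 for 4 endothelial, -0.89 for 3 erythroid, 0.057 for 4 immune and 0.29 for 4 stem or folliculostellate markers. The corresponding female medians were 0.62 for somatotrope, 0.35 for thyrotrope, -0.34 for endothelial, -0.85 for erythroid and -0.26 for immune markers, and edgeR called 0 genes of these lists in either sex. At an unadjusted p under 0.05 there was 1 of these genes in males (Gh), beside 6.14% of all genes. In females there was 1 each for the somatotrope, endothelial and erythroid lists, beside 16.1%. DESeq2 called 0 in these 5 lists, beside 1.18% of all genes in males and 7.91% in females. The part of these cell types in the values of the Pomc-cell genes was not tested.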

How the data were processed

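RNA from whole pituitary glands was made into libraries with a low-input kit and sequenced from both ends. Per the labels and the study's methods the authors trimmed reads with cutadapt, aligned them to mm10 with STAR and counted genes with featureCounts at default settings. The deposited table holds whole-number counts per gene whose row names come from an assembly step that is not described in the sources used here. Among 34309 single-transcript genes the values 5 and 9 were 1.413 and 1.159 times as frequent as the mean of their neighbours, so that a fragment was taken as about 4 counts, and the totals overstate the number of fragments. Every column was mapped to a sample (0 left out).

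Each comparison was fitted on its own groups with edgeR 4.0.16 (R 4.3.3, limma 3.58.1), by the quasi-likelihood test on the deposited counts after filterByExpr (minimum count 10, minimum total 15) and TMM scaling. P-values were adjusted by Benjamini-Hochberg over all genes tested, with a threshold of 0.05, and two-sided. The SE is the log2 fold change divided by the root of F. Levels are CPM, and correlations used log2 CPM with a prior count of 2 and two-sided permutation tests (100000 resamples) adjusted over 12 relations. Ratios of counts were compared by two-sided exact permutation tests adjusted over 16 tests (numpy 2.4.6, scipy 1.17.1, pandas 2.3.3). DESeq2 1.42.0, other scalings and filters, a single fit, a replicate block and leaving out libraries were tried. The fit was tested on simulated data. The 6 genes and the gene lists were chosen with earlier results of these data known. Named besides the members are the genes of a written rule (Crhr1, Avpr1b, Nr3c1, Oacyl, Pitx1, Scg5, Cpe and called list genes) and the 10 genes most like Pomc and Pax7, with exceptions stated. Promoter sequences are from RefSeq (GRCm38.p6). Isolated gonadotropes were not analysed here. The counts over a list of transcriptional regulators are not reported here.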

Additional observations from a re-analysis of the deposited data

How the results depend on the processing

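Of the alternatives, leaving out the 4 libraries with Oxt counts was chosen after seeing the data. So were the ranking without PE-/- male replicate 1 and the choice of that library for the correlations over 14 libraries. The count of the 6 genes called in females was 0 in place of 1 under library totals (Neurod1 1.20, edgeR adjusted p = 0.0519), in a single fit on 15 libraries (1.19, adjusted p = 0.0760) and with a replicate block (1.23, adjusted p = 0.229), and 0 to 1 when each library was left out. It was 1 in place of 0 between the sexes of PE+/- mice under DESeq2 and in the single fit, and 1 in place of 0 for the interaction under DESeq2. Over all genes DESeq2 called 206 in males, 1431 in females, 902 and 41 between the sexes of PE+/- and PE-/- mice and 392 for the interaction, against 23, 189, 115, 9 and 31 by edgeR. The single fit called 37, 714 and 421 in the first 3, no filter 123 in females and 66 between PE+/- sexes, and leaving out each library gave 11 to 35, 29 to 244, 34 to 113, 7 to 27 and 7 to 71.

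Same-numbered libraries did not deviate together (r -0.081 to 0.13 over 14 pairs, 2 of them over 0.1, with 3 libraries closest to their own number), so that the numbers were not taken as a pairing. The replicate block left 0, 1, 0, 0 and 11 genes called in the 5 comparisons, and under the block Cpe was 0.26 in males, Pomc 0.67 between PE-/- sexes, the interaction 0.055 for Pomc and 0.045 for Pax7, and r with Pomc 0.81 for Tbx19 and -0.54 for Pcsk1.

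Without the 4 libraries with Oxt counts, 0, 13, 11 and 8 genes were called in males, between PE+/- sexes, between PE-/- sexes and for the interaction. Directions turned for Pomc (-0.22) and Nr3c1 (-0.084) in males, Pomc (0.37), Pax7 (0.50) and Pcsk2 (0.24) between PE+/- sexes, Pomc (1.05) and Pax7 (0.21) between PE-/- sexes, the interaction of Pomc (0.68), and r of Pomc with Megf11 (-0.091) and Neurod1 (0.041), while r of Pax7 with Tbx19 was 0.70. Tbx19 between PE-/- sexes, near 0, was -0.017 by library totals, -0.029 by totals without the 10 top genes and -0.00015 with counts divided by 4. With group means subtracted, r of Pomc was -0.60 with Pcsk1 and -0.38 with Neurod1, and with Rbfox3 it was 0.0090 and 0.035 under the 2 scalings by totals. The cause was not tested for any of these.

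Leaving out each library in turn gave ranges that crossed 0 for Pomc (-0.38 to 0.15), Pax7 (-0.58 to 0.26), Pcsk2 (-0.33 to 0.064) and Neurod1 (-0.34 to 0.22) between PE+/- sexes, Pomc (-0.66 to 0.29) and Tbx19 (-0.12 to 0.14) between PE-/- sexes, Pomc (-0.54 to 0.43) and Pax7 (-0.60 to 0.24) in the interaction, Tbx19 (-0.37 to 0.072), Pitx1 (-0.44 to 0.31), Nr3c1 (-0.030 to 0.31) and Cpe (-0.61 to 0.77) in males, and Avpr1b (-0.081 to 0.41) in females. For r with Pomc the ranges were 0.34 to 0.90 for Pax7, 0.24 to 0.98 for Pcsk2, 0.32 to 0.96 for Oacyl, 0.39 to 0.89 for Esm1, 0.16 to 0.82 for Megf11, 0.43 to 0.70 for Drd2, 0.52 to 0.81 for Tbx19, -0.13 to 0.48 for Rbfox3 and -0.22 to 0.17 for Neurod1. The lowest were mostly without PE-/- male replicate 3 and the highest without PE-/- male replicate 1. For log2 ratios they were -1.13 to 0.083 for Pomc to Pax7 and -0.38 to 0.95 for Pomc to Tbx19 in males, -0.32 to 0.20 for Pcsk2 to Pcsk1 in females, -0.063 to 0.37 for Pomc to Pax7 and -0.015 to 0.34 for Pax7 to Tbx19 between PE+/- sexes, and -0.20 to 1.01 for Pomc to Pax7 and -0.49 to 0.84 for Pomc to Tbx19 between PE-/- sexes.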

Other observations

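Of the receptor and feedback genes, Sstr5, a somatostatin receptor gene named here after its values were seen, had 39.7, 30.5, 22.4 and 15.7 CPM in PE+/- females and 97.8, 68.6 and 71.1 CPM in PE-/- females. The groups did not overlap (log2 fold change 1.54, SE 0.32, edgeR adjusted p = 0.0789), and in males the change was 0.067 (SE 0.21, edgeR adjusted p = 0.988).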
